A study of Mus musculus with 48 samples.

Results

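A-to-I editing in brain was set against that in heart, kidney, liver, small intestine, spleen, thymus and bone marrow (BM) of mice whose ADAR1 can edit, using 24 of the 48 mmPCR-seq libraries, 3 for each of the 8 tissues. These were chosen by their genotype label (WT), and a site entered a comparison if it had more than 100 reads in at least 2 of the 3 replicates of both tissues and an editing level above 1% in either. In mmPCR-seq, stretches of cDNA holding known sites are amplified with pooled primers and sequenced, and since inosine is read as guanosine, the editing level is the share of a site's reads that carry G where the genome has A. The WT mice were male C57BL/6 animals of 12 weeks with the genotype Adar1+/+ Ifih1-/-. The other 24 libraries came from Adar1E861A/E861A Ifih1-/- mice (E861A), which make an ADAR1 protein that cannot deaminate adenosine, and they are used here only to describe sites chosen in the WT libraries. Ifih1 encodes MDA5, a cytosolic sensor of double-stranded RNA, so no library of the series comes from an animal with MDA5, and nothing here describes tissue that has it. Whole brain and the other whole organs were homogenised, and BM was the haematopoietic cells of the marrow. The labels call the 3 libraries of a tissue independent biological replicates, and every test below measures the spread between them only.

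ADAR1, encoded by Adar, and ADAR2, encoded by Adarb1, convert adenosine to inosine in double-stranded RNA. ADAR1 is made in most tissues and edits many sites in inverted repeats, which lie mainly in 3′ UTRs and introns. ADAR2 is abundant in brain, where it edits codons of glutamate receptors and ion channels. Because the translation machinery reads inosine as guanosine, editing in a codon can replace an amino acid, which is called recoding.

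The sequences below are the genome around the edited adenosines that the comparisons turn on, read 5′ to 3′ on the edited strand of mm9 (NCBIM37), with 10 bases on each side and the edited A in capitals. The first set holds codons edited in brain and near 0% in most libraries of the other tissues that read them. They lie in coding exons of the actin regulator Cyfip2, the ion channel Tmem63b, the potassium channel Kcna1, the calcium channel Cacna1d and the vesicle release factor Cadps.
Cyfip2 Lys to Glu, chr11:46086135-46086155, minus strand: cagatacattAagaccagtgc
Tmem63b Gln to Arg, chr17:45799888-45799908, minus strand: tacgagttccAgtttggcgca
Kcna1 Ile to Val, chr6:126592166-126592186, minus strand: tgtgctgacaAttgccctgcc
Cacna1d Ile to Met, chr14:30879297-30879317, minus strand: ctttcctgatAcaggactact
Cacna1d Tyr to Cys, chr14:30879289-30879309, minus strand: atacaggactActttaggaaa
Cadps Glu to Gly, chr14:13244086-13244106, minus strand: aaggtcaatgAggagatgtat

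The second set shows how alike the edited windows of the glutamate receptor subunits are. At the Arg to Gly codon of the AMPA receptor subunits, 20 of the 21 letters were the same in Gria2 and Gria4, and 18 in Gria3 and either of them. At the Gln to Arg codon of the pore, Grik1 and Grik2, which encode kainate receptor subunits, shared 20 letters, and Gria2 shared 14 with either.
Gria2 Arg to Gly, chr3:80496198-80496218, minus strand: atcctcattaAggtgggtgga
Gria3 Arg to Gly, chrX:39007419-39007439, plus strand: ctcagcattaAggtgggtgga
Gria4 Arg to Gly, chr9:4455996-4456016, minus strand: ttcctcattaAggtgggtgga
Gria2 Gln to Arg, chr3:80510824-80510844, minus strand: gcctttatgcAgcaaggatgc
Grik1 Gln to Arg, chr16:87940778-87940798, minus strand: gctctcatgcAgcaaggtaca
Grik2 Gln to Arg, chr10:48964126-48964146, minus strand: gctctcatgcAgcaaggtata

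The third set holds codons of genes used by many cell types, at which other tissues reached or passed the level of brain. Cog3 encodes a subunit of the Golgi tethering complex, Copa a subunit of the coat of Golgi vesicles, and Flna encodes a filamin, which crosslinks actin.
Cog3 Ile to Val, chr14:76119516-76119536, minus strand: cattaaggaaAtttccctgga
Copa Ile to Val, chr1:174022469-174022489, plus strand: cgtttgggatAtttctggtga
Flna Gln to Arg, chrX:71472191-71472211, minus strand: tctagtcttcAggtgaggcac

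The fourth set holds 3′ UTR sites at the ends of the range, the first 3 edited far more in brain than in most other tissues and the others, apart from the second site of Cds2 and of Trove2, far less than in some of them. Cds2 and Trove2 are shown with a pair of sites each because the sites of a pair differed in pattern across tissues.
Zfp941, chr7:147996101-147996121, minus strand: tgggtgtcctAggactcacca
uc012eok.1 (within Tia1), chr6:86364924-86364944, plus strand: ctaccatagtAagttctagac
Commd2, chr3:57448399-57448419, minus strand: ctcttgaagaAgatctgagtt
Rhoa, chr9:108239451-108239471, plus strand: tttgtgaattAggctgtaact
Cdh1, chr8:109192613-109192633, plus strand: tgatctgagaAgtgtgcagat
Mgat4a, chr1:37499228-37499248, minus strand: tgaataggaaAagtgtcaaat
Cds2, chr2:132135359-132135379, plus strand: tacagtgcttAatatgtgcca
Cds2, chr2:132135606-132135626, plus strand: gtaagcatttAgcaaggtgcc
Trove2, chr1:145602491-145602511, minus strand: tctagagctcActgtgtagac
Trove2, chr1:145602498-145602518, minus strand: tggctattctAgagctcactg

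Each library listed 48715 positions, and coverage summed over them ranged from 1861831 in BM replicate 2 to 10847485, with a median of 8087234. Between 1949 positions in BM replicate 2 and 6806 had more than 100 reads, and the median coverage of these positions lay between 559 and 1710. The mmPCR reads carried no molecular identifiers, so intervals on counts cover counting error only. In brain 3986 sites were covered and 654 of them were edited above 1% when the reads of its covered replicates were summed. Replicates of a tissue differed: of the edited sites read in all 3 libraries, 37.8% were above 1% in all 3 in brain and 45.2% in kidney, but 3.13% in small intestine and 8.17% in heart, where 83.0% of 224 and 71.6% of 306 sites were above 1% in 1 library only. The panel holds 12 neuronal transcripts that serve to check the brain label. All 12 were covered in brain, and between 4 (BM, liver) and 9 (thymus, kidney) in the other tissues, so a neuronal transcript read elsewhere gives a level but not its abundance. Coverage did not follow the brain label at every one of the 12. At the best covered position Gabra3 had 274 to 977 reads in brain and 1213 to 1769 in liver, and Nova1 5 to 1069 in brain and 955 to 1436 in spleen. Grm4 had 2 to 540 in brain and up to 808 in small intestine, all 3 libraries of which covered it. Unc80 had 2471 to 3570 in brain, up to 3537 in small intestine and up to 2663 in thymus. Kcna1 had 4645 to 6216 in brain and up to 5304 in small intestine. A whole tissue gives the average over its cells, and fewer editing cells cannot be told apart from less editing per cell.

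The mean editing level was higher in brain than in each of the other tissues. Over the sites of a comparison that were read in all 6 libraries, the mean in the brain libraries was between 9.52% and 12.0%, and that in the libraries of the other tissues between 0.728% and 6.35%. In no comparison did a library of the other tissue reach the lowest brain library. The difference was smallest against liver, with 10.6% ± 0.385 in brain and 5.25% ± 1.06 in liver (SD, n = 3), a difference of 5.40 percentage points and a ratio of 2.03. It was widest against spleen, with 11.0% ± 0.417 and 1.62% ± 0.312, a difference of 9.34 points and a ratio of 6.77. Between these lay BM (3.85% ± 0.965 against 10.7% ± 1.20 in brain), kidney (4.25% ± 0.632 against 11.8% ± 0.295), thymus (2.60% ± 2.03 against 10.8% ± 0.615), heart (2.39% ± 1.33 against 11.1% ± 0.411) and small intestine (2.35% ± 1.24 against 10.7% ± 0.435). The two-sided exact permutation test gave p = 0.1 in each of the 7 comparisons, which is the smallest that 3 against 3 libraries allow, and 0.1 after Benjamini-Hochberg adjustment over the 7. Over the 276 sites read in all 24 libraries, a set that the lowest library, BM replicate 2, restricts, brain had 7.82% ± 0.800, liver 2.85% ± 0.509, BM 2.84% ± 0.851, thymus 2.03% ± 1.33, kidney 1.79% ± 0.234, small intestine 1.64% ± 0.185, heart 1.60% ± 0.421 and spleen 1.48% ± 0.251. Liver and BM, and likewise kidney, small intestine, heart and spleen, lay within each other's spread. Over the 471 sites read when BM replicate 2 was left out, kidney (2.37%, libraries at 1.89% to 2.61%) lay above spleen (1.25%, 1.08% to 1.58%) without overlap. A site entered these means if it was edited in either tissue, and of the sites compared 300 of 721 against liver to 503 of 694 against spleen were edited in brain alone, a choice that favours a higher mean in brain. The means were therefore also taken over 2 other sets of sites, which were chosen after seeing the data. Over all sites read in the 6 libraries, with no limit on the level, brain had 2.28% ± 0.226 to 2.61% ± 0.0759. The other tissues had 0.499% ± 0.0683 (spleen) to 1.39% ± 0.255 (liver). The differences were 1.22 (liver) to 1.86 points (spleen), with no overlap in any comparison. Over the sites edited in the other tissue, a choice that favours that tissue, brain was still higher by 2.89 (BM) to 8.46 points (heart), with overlap of the libraries in BM only. The same 3 brain libraries stand in all 7 comparisons, which are therefore not independent of each other.

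**Figure D1:**
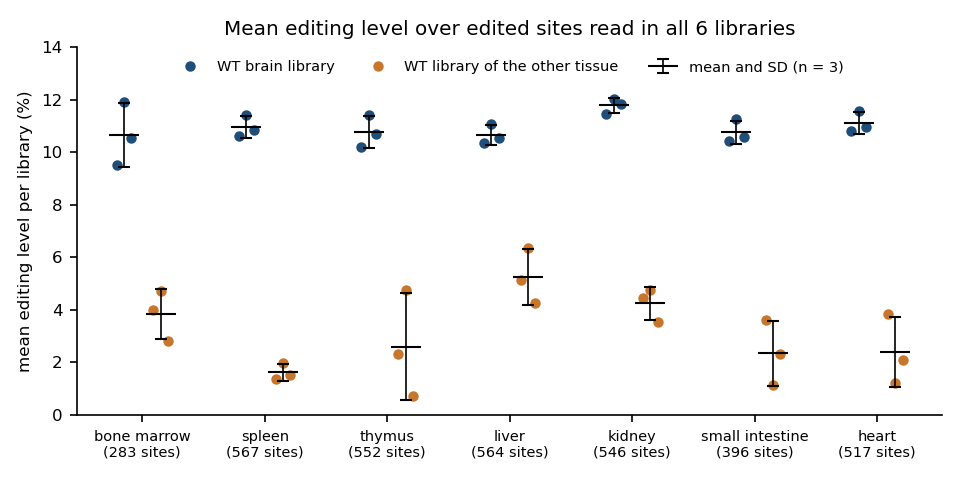
Mean editing level of each library (percent, y axis) over the edited sites read in all 6 libraries of a comparison, for brain and the other tissue of each of 7 pairs; points are libraries, and the bar and whiskers give mean and SD of 3. The brain libraries lie between 9.52% and 12.0%, and those of the other tissues between 0.728% and 6.35%.

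In each comparison more sites were edited in brain only than in the other tissue only, from 300 and 132 against liver to 503 and 74 against spleen. Of the 620 sites edited in brain and covered in spleen, 18.9% (Wilson 95% interval 16.0 to 22.1) were also edited in spleen, while 61.3% of the sites edited in spleen were edited in brain. The share of brain-edited sites also edited was 27.3% (23.8 to 31.0) in small intestine, 33.3% (29.8 to 37.1) in heart, 34.5% (30.8 to 38.5) in BM, 34.7% (31.1 to 38.5) in thymus, 46.1% (42.2 to 50.0) in kidney and 49.1% (45.0 to 53.1) in liver. Read from the other side, 61.9% of the sites edited in BM were edited in brain, 63.3% in small intestine, 66.3% in thymus, 68.6% in liver, 71.8% in kidney and 75.2% in heart. The Wilson intervals count sites as independent, although neighbouring sites share an amplicon, and they leave out the spread between libraries. Without small intestine replicate 1 the share in small intestine was 5.50%, and without heart replicate 1 that in heart was 14.3%. Both lie outside their intervals. These classes follow from a limit and are given with no test: 93 sites had a brain level of 1% to 2% and 126 one of 0.5% to 1%, and the sites nearest the limit stood at 0.984% and 1.006%.

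**Figure D2:**
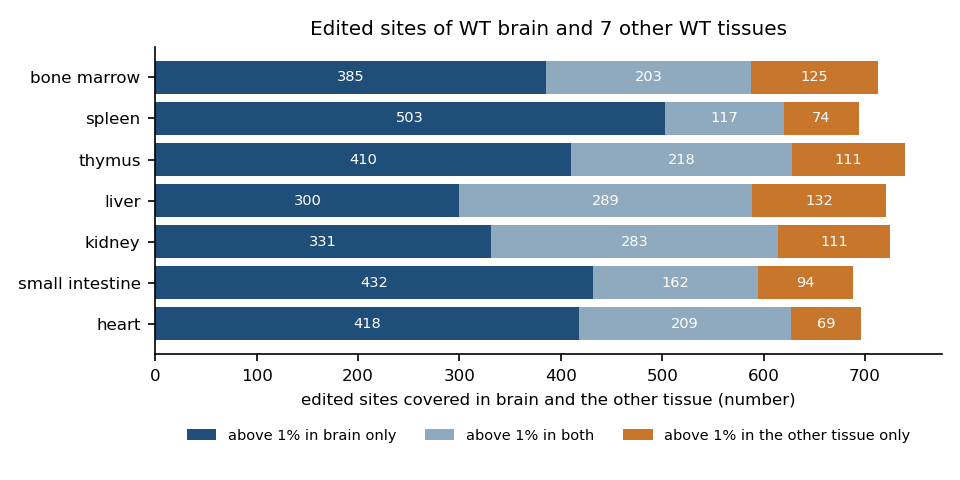
Number of sites (x axis) edited above 1% in brain only, in both tissues, or in the other tissue only, for brain paired with each of 7 tissues (y axis). The numbers stand in the bars. Sites edited in brain only range from 300 against liver to 503 against spleen, and those edited in both from 117 in spleen to 289 in liver.

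Against spleen, 694 sites were compared, and 131 of them (18.9%) were higher in brain and 2 (0.288%) lower by limma at an adjusted p under 0.05, together 19.2%. Of the 131, 112 were edited in brain only, and 1 of the 2 in spleen only. Such a site entered the test only through the tissue where it is high and so had to differ, here and in the comparisons below, and the counts of calls are a description of the sites compared. Among the 131 were 81 sites in 3′ UTRs, 17 intergenic, 13 intronic, 11 in ncRNA, 8 nonsynonymous and 1 synonymous, in 73 genes, with a median difference of 21.2 percentage points. Cyfip2, which links the Rac GTPase to actin assembly, was read at 74.4%, 80.2% and 86.0% in the 3 brain libraries and at 0.184%, 0.259% and 3.26% in spleen. The lowest brain library thus lay far above the highest of spleen, and the fitted difference between the group means was 7.75 ± 0.76 (SE) on the log2 ratio scale, edited over unedited with an offset of 0.01 (limma, adjusted p = 0.00406). The Arg to Gly site of Gria3 stood at 61.7%, 42.9% and 69.2% in brain and at 0.430%, 0.759% and 0.638% in spleen (limma, adjusted p = 0.00406), without overlap. In the 3′ UTR of Zfp941, a zinc finger gene, the levels were 99.9%, 86.9% and 69.3% in brain and 0.446%, 0.0592% and 0.251% in spleen (limma, adjusted p = 0.00608). Of the 567 sites read in all 6 libraries, the 3 brain values lay above the 3 of spleen at 31.9% and below them at 4.94%.

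Both sites lower in brain than in spleen lie in 3′ UTRs. In Rhoa, which encodes a GTPase of the actin cytoskeleton, the level was 5.18%, 3.03% and 0.925% in brain and 42.8%, 45.4% and 39.8% in spleen, 4.33 ± 0.672 lower on the log2 ratio scale (limma, adjusted p = 0.00783). This site also stood at 42.4%, 49.9% and 35.3% in BM (limma, adjusted p = 0.0317) and at 28.1%, 35.5% and 20.8% in thymus (limma, adjusted p = 0.0439), whereas the libraries of liver, kidney and heart lay between 1.65% and 9.76% and overlapped those of brain. Small intestine stood at 12.8%, 0.594% and 15.0%, with 2 libraries above brain and 1 below it (limma, adjusted p = 0.520). The level of Rhoa was thus highest in the 3 blood-forming and immune tissues, whose libraries lay above all of the others, but the BM call was lost without BM replicate 1, BM replicate 2 or brain replicate 2 (adjusted p up to 0.0714), and the thymus call in 5 of the 6 fits that leave out a library (up to 0.144). The other site lies in Ppp1r15b, a regulator of the phosphatase that reverses the stress-induced block of translation, in a stretch of 21 bases with 26 copies in the genome. It stood at 0%, 0.787% and 0% in brain and at 9.43%, 15.0% and 8.77% in spleen (limma, adjusted p = 0.011). That call was lost without any of the spleen libraries (up to 0.0776). The number of called sites fell from 133 to 58, 57 and 62 without spleen replicate 1, 2 and 3, while the calls of Cyfip2, Gria3, Kcna1, Zfp941, Commd2 and Rhoa in this comparison passed in all 6 fits that leave out a library.

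Against thymus, 739 sites were compared, with 92 (12.4%) higher and 3 (0.406%) lower in brain by limma, together 12.9%. The site was edited in brain only at 72 of the 92, and in thymus only at 2 of the 3. The higher sites were 55 in 3′ UTRs, 11 intergenic, 10 intronic, 9 nonsynonymous and 7 in ncRNA, with a median difference of 21.7 points. The Arg to Gly site of Gria2 was read at 71.6%, 75.7% and 74.4% in brain and at 3.32% and 0.110% in the 2 thymus libraries that covered it (limma, adjusted p = 0.0207). In Cacna1d, the Ile to Met site stood at 38.7%, 41.1% and 38.6% in brain and at 0.493% and 0% in thymus, and the Tyr to Cys site, within 10 bases of it, at 28.4%, 16.2% and 22.0% against 0.5% and 0% (limma, adjusted p = 0.020 and 0.0277). Each of these 3 calls passed without each brain library in turn, but neither of the 2 thymus libraries that read these sites could be left out, so that the calls have no such check on the side of thymus. Brain was lower at Cdh1, which encodes the epithelial adhesion molecule E-cadherin, with 0%, 0.259% and 0% against 35.8%, 55.4% and 8.60% in the 3′ UTR (limma, adjusted p = 0.0258). The brain values thus lay below all 3 of thymus, which themselves spread widely, and the call passed in 2 of 6 fits with a library left out. The count of 95 called sites went to 0 without thymus replicate 1 or 2 and to 23 without replicate 3. The thymus libraries differed in their mean level (2.32%, 4.76% and 0.728%). Of 552 sites read in all 6 libraries, 31.2% had all brain values above and 3.62% all below those of thymus.

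Against BM, 713 sites were compared, and 50 (7.01%) were higher and 8 (1.12%) lower in brain by limma, together 8.13%. Of the 50, 46 were edited in brain only, and 7 of the 8 in BM only. The 50 were 27 in 3′ UTRs, 8 intronic, 7 nonsynonymous, 5 intergenic and 3 in ncRNA, with a median difference of 21.4 points. Of the 8 lower sites, 7 lay in 3′ UTRs, each in a different gene. In Cds2, whose enzyme makes CDP-diacylglycerol for phosphoinositide synthesis, the site at chr2:132135369 was read at 0%, 0.0435% and 2.2% in brain and at 67.4%, 69.8% and 29.5% in BM (limma, adjusted p = 0.0208). All 3 BM values lay above those of brain. In Mgat4a, a Golgi glycosyltransferase, the site at chr1:37499238 stood at 0.0982% and 0.102% in the 2 brain libraries that read it and at 28.1% and 20.9% in 2 of BM (limma, adjusted p = 0.0455). An intergenic site within Xpnpep3, whose 21 bases have 105 copies in the genome, was lower in brain at 0.188%, 0.112% and 0.0850% against 19.4%, 26.9% and 16.4% (limma, adjusted p = 0.0147). Reads at a repeated sequence may come from more than 1 place. The count of 58 called sites depended on libraries of both tissues: it was 20 without BM replicate 1, 0 without BM replicate 2, 29 without BM replicate 3 or brain replicate 2, and 112 without brain replicate 1. Non-overlap concerned 27.6% of the 283 sites read in all 6 libraries with brain above, and 7.07% with brain below.

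Against kidney, 725 sites were compared, with 82 (11.3%) higher and 14 (1.93%) lower in brain by limma, together 13.2%. Brain alone was edited at 50 of the 82, and kidney alone at 13 of the 14. Of the higher sites 50 lay in 3′ UTRs, 10 were intronic, 8 nonsynonymous, 8 intergenic, 5 in ncRNA and 1 synonymous. The 14 lower sites, 11 of them in 3′ UTRs, came from 10 genes or unnamed loci, with a median difference of -19.9 points. Cds2 at chr2:132135369 again stood above brain, at 41.1%, 29.6% and 20.1% in kidney (limma, adjusted p = 0.0225), as did Mgat4a at chr1:37499238 with 25.1%, 19.1% and 15.3% (limma, adjusted p = 0.0231). In Trove2, which encodes the RNA-binding protein Ro60, the site at chr1:145602501 was read at 0% and 0.161% in brain and at 28.8%, 23.9% and 9.03% in kidney (limma, adjusted p = 0.0369). The neighbouring Trove2 site at chr1:145602508 stood at 84.5% and 66.9% in brain and at 66.2%, 69.1% and 76.5% in kidney, overlapping, so that sites within 10 bases of each other differed in pattern. The 3′ UTR site of Ecm2, an extracellular matrix gene, was at 0% and 3.63% in brain and at 45.0%, 47.3% and 56.9% in kidney (limma, adjusted p = 0.0265). The kidney calls rested on all of its libraries: without any 1 of the 3 no site was called. Of the 546 sites read in all 6 libraries, 28.4% lay above in all brain libraries and 6.23% below.

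Against liver, 721 sites were compared, and 8 (1.11%) were higher and 1 (0.139%) lower in brain by limma, together 1.25%. Of the 8, 7 were edited in brain only, and the lower site in liver only. The higher sites included 3 nonsynonymous sites, both of Cacna1d and that of Tmem63b, and the 3′ UTR sites of Zfp941 and Commd2, all with an adjusted p of 0.0397 by limma. Tmem63b stood at 44.1%, 63.5% and 73.1% in brain and at 0.107%, 1.73% and 1.58% in liver. In Commd2, a gene of the COMMD family, the levels were 59.7%, 38.6% and 29.3% in brain and 0%, 0.232% and 0.327% in liver. The brain libraries lay above every liver library at both sites. The lower site lies in the 3′ UTR of Slc35e2, a gene of the solute carrier family, with 0.155%, 0% and 0% in brain and 13.6%, 15.7% and 23.3% in liver (limma, adjusted p = 0.0401). Without brain replicate 2 or any of the liver libraries no site was called, without brain replicate 1 there were 20 and without brain replicate 3 there were 19. Of the 564 sites read in all 6 libraries 24.1% had brain above and 6.38% brain below without overlap, and a quasi-binomial model of the edited and unedited reads called 71 higher and 10 lower.

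Against small intestine, 47 of 688 sites (6.83%) in 32 genes were higher in brain, and against heart 35 of 696 (5.03%) in 26 genes. Of these, 42 of the 47 and 30 of the 35 were edited in brain only. No site was lower in either comparison by limma at an adjusted p under 0.05 (0.0% each). At an unadjusted p under 0.05, limma gave 4 lower sites in small intestine and 5 in heart, and the quasi-binomial model gave 1 and 3 after adjustment. The median difference of the called sites was 22.0 points against small intestine and 27.6 points against heart. Kcna1, a voltage-gated potassium channel, was read at 19.4%, 41.5% and 44.8% in brain, at 0.129%, 0.124% and 0% in small intestine and at 0%, 0.0293% and 0.154% in heart (limma, adjusted p = 0.0338 and 0.0451). The uc012eok.1 site, in a transcript within Tia1, stood at 70.8%, 100% and 80.7% in brain, at 0.120%, 0.215% and 0.0300% in small intestine, and at 0.0893% and 0% in the 2 heart libraries that read it (limma, adjusted p = 0.0338 and 0.0467). All brain values lay above those of either tissue at both sites. In small intestine the 47 calls became 106 without brain replicate 1, 28 without brain replicate 3, and 0 without brain replicate 2 or small intestine replicate 2 or 3. In heart the 35 became 113 without brain replicate 1, and 0 without brain replicate 2, brain replicate 3, or heart replicate 2 or 3. Of the sites read in all 6 libraries, 31.8% of 396 lay above in all brain libraries against small intestine and 0.505% below, and 33.1% of 517 above and 1.93% below against heart.

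**Figure D3:**
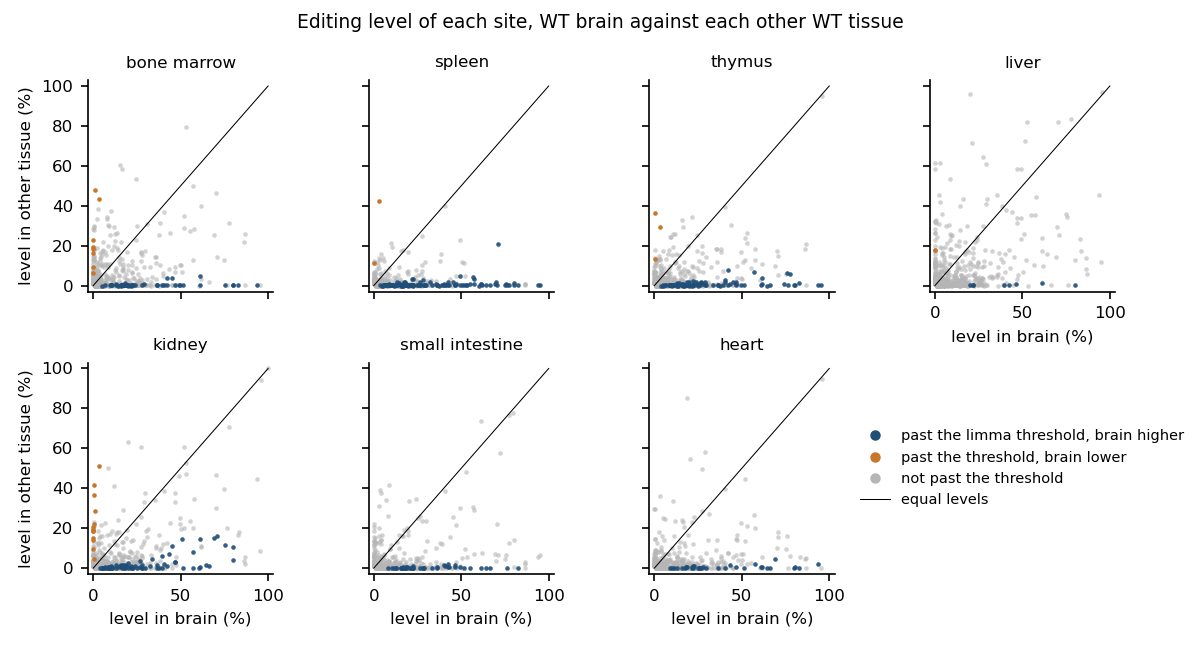
Editing level in brain (x axis, percent) against that in the other tissue (y axis, percent) for every site compared, 1 panel for each of 7 tissues; points are sites, with the reads of covered replicates summed, coloured by the limma call. Called sites lie mostly below the diagonal, from 131 higher in brain against spleen to 8 against liver, and those called lower in brain lie above it.

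At the 30 nonsynonymous sites in 22 genes with a brain level above 5%, which were chosen by that level, the median level in brain was 34.9%. Their higher levels in brain are therefore a description and not a finding. Between 13 (spleen) and 20 (kidney) of the 30 were covered in another tissue, and 6 sites in 4 genes were covered in brain only. Of the covered ones 5 of 16 were edited in BM, 3 of 13 in spleen, 6 of 19 in thymus, 11 of 18 in liver, 9 of 20 in kidney, 10 of 18 in small intestine and 5 of 16 in heart. Limma called 7 higher in brain against BM, 7 against spleen, 9 against thymus, 3 against liver, 8 against kidney, 2 against small intestine and 4 against heart, and none lower. Over all sites of these comparisons the shares called higher were 7.01%, 18.9%, 12.4%, 1.11%, 11.3%, 6.83% and 5.03%, in the same order. Nothing is read from this difference, since the 30 were chosen by their brain level, and many sites of the lists below are among them. The level from all reads stood above that of brain at 4 of them in liver, kidney and heart, at 1 in thymus and small intestine, and at 0 in BM and spleen. In the 6 comparisons other than that with spleen, no call given in the next paragraphs passed when a library was left out without which the count of called sites was 0. Brain libraries themselves spread by an SD above 10 points at 19 of the 30 sites and below 3 points at 6.

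Among the AMPA receptor subunits, the channels of fast excitatory transmission, the Gln to Arg site of Gria2, which makes the channel impermeable to calcium, was read at 99.97%, 99.8% and 99.8% in brain. In kidney it stood at 100% in all 3 libraries, on at most 473 reads each (limma, adjusted p = 0.472). The level at this site was thus near complete in both tissues where this position was covered. The Arg to Gly sites, which set how fast the receptor recovers, stood at a mean of 58.0% ± 13.6 in brain for Gria3, and at 87.9%, 89.0% and 97.4% for Gria4, which was covered in brain only. Gria3 was read widely: at 0.233%, 0% and 9.12% in BM, at 0.297%, 1.31% and 0% in thymus, at 3.26%, 9.11% and 20.6% in kidney, and at 0.791% and 0% in heart. In these 4 tissues brain was called higher by limma (adjusted p = 0.0378, 0.0141, 0.0455 and 0.0451), but the kidney call was lost with any library left out (up to 0.182). The BM call was lost without BM replicate 1 or 2 or brain replicate 2 or 3 (up to 0.106), the thymus call passed in 4 of 6 fits with a library left out (up to 0.0821), and the heart call in 1 of 4 (up to 0.158). In liver the 2 libraries with reads gave 0.291% and 38.8%, both below brain (limma, adjusted p = 0.316). In small intestine the 2 libraries with reads gave 36.2% and 100%, across the range of brain. The edited AMPA sites were 8 in brain, with a median of 44.6%. Limma called 1 of 2 higher in brain against BM, 1 of 2 against spleen, 2 of 4 against thymus, 0 of 2 against liver, 2 of 5 against kidney, 0 of 1 against small intestine and 1 of 1 against heart, beside 7.01%, 18.9%, 12.4%, 1.11%, 11.3%, 6.83% and 5.03% of all sites.

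The kainate and metabotropic glutamate receptor genes held 11 edited sites in brain, with a median level of 11.6%. The Gln to Arg site of Grik2 was read at 56.1%, 77.2% and 77.8% in brain and that of Grik1 at 45.5%, 66.9% and 66.1%. The Grik1 site was covered in no other tissue. In small intestine Grik2 stood at 6.23% and 100% in the 2 libraries with reads, and its Tyr to Cys and Ile to Val sites at 0.787% and 100%, and at 0.256% and 99.9%. The library with levels near 100% was replicate 2 at all 3 sites, and no site of this list passed the limma test in any tissue, with 3 sites tested in BM, 4 in spleen, 5 in thymus, 0 in liver, 3 in kidney, 8 in small intestine and 3 in heart, where 1.11% to 18.9% of all sites were called higher. In the serotonin receptor gene Htr2c the 3 recoding positions above 5% were covered in brain only, where they gave 98.5%, 70.6% and 80.4%, then 98.6%, 63.4% and 51.5%, then 4.48%, 5.85% and 42.6%. For Gabra3, a GABA receptor subunit, the brain libraries spread from 25.9% to 100%, while liver gave 6.47%, 20.1% and 22.0% and kidney 15.7%, 23.8% and 15.9% (limma, adjusted p = 0.226 and 0.181). Neither liver nor kidney overlapped brain. Htr2c and Gabra3 together held 7 edited sites in brain with a median of 18.0%. Limma called 1 of 1 higher in brain against spleen and 1 of 2 against kidney, where 18.9% and 11.3% of all sites were called higher. Against thymus 0 of 1, against liver 0 of 1 and against heart 0 of 2 were called, beside 12.4%, 1.11% and 5.03% of all sites. No site was tested in BM or small intestine.

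The ion channel genes Cacna1d, Cacna1g, Kcna1, Kcnma1 and Unc80 held 6 edited sites in brain, with a median of 27.7%. Cacna1d Ile to Met was close to constant in brain (39.5% ± 1.39, n = 3) and stood at 0.592% and 0.286% in BM, 0.231%, 0.101% and 0.339% in liver, and 0%, 0% and 0.0713% in kidney. Brain was called higher by limma in each (adjusted p = 0.0208, 0.0397 and 0.0124). Kcna1 in brain spread more (35.2% ± 13.8), and its other levels were 0.142%, 0% and 0.163% in BM, 0.0693%, 0.174% and 0.0864% in spleen, 0.0833%, 0% and 0.0712% in thymus, and 0%, 0.0646% and 0% in kidney (limma, adjusted p = 0.0147, 0.00476, 0.0153 and 0.0134). Liver was the exception, with 0.184%, 0.163% and 36.3%, so that 1 liver library lay within the range of brain (limma, adjusted p = 0.299). Reads covering this Kcna1 position numbered 4645 to 6216 in brain and 1467 to 1922 in kidney. Without molecular identifiers, the number of molecules behind these reads is not known. The recoding site of Unc80, a subunit of the sodium leak channel, was covered in brain only, at 48.4%, 32.1% and 27.4%.

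Of the other neuronal recoded genes, Cyfip2 was read in all 8 tissues. It stood at 0.214%, 0.0657% and 0.180% in BM, at 0.118%, 0.211% and 0.188% in thymus, and at 0.655%, 0.124% and 0.391% in heart (limma, adjusted p = 0.00946, 0.0118 and 0.027). Kidney was higher than these, at 3.99%, 3.04% and 4.62%, and still below all brain libraries (limma, adjusted p = 0.0124). Liver spread from 0.122% to 28.2% (adjusted p = 0.0771), and small intestine held 2.42%, 96.1% and 0%, where 769 reads of replicate 2 gave a level above all of brain (limma, adjusted p = 0.438). Tmem63b was called in 6 tissues (limma, adjusted p = 0.0147 in BM, 0.0141 in thymus, 0.0397 in liver, 0.0134 in kidney, 0.0338 in small intestine and 0.0451 in heart), with no level above 1.73% outside brain. Cadps stood at 20.6%, 21.6% and 22.4% in brain, and at 0%, 0.245% and 0% in kidney (limma, adjusted p = 0.0134). In thymus it gave 99.5% in replicate 1 and 0.217% in replicate 2. Mfn1, whose product fuses mitochondria, is not of this list and is counted below with the broadly expressed genes. Its Ile to Val site was at 22.3%, 3.84% and 23.1% in brain and at 0.313% or less in all libraries that read it elsewhere. The site passed the limma test against spleen, thymus and kidney (adjusted p = 0.0271, 0.0375 and 0.0398). Each of these 3 calls was lost in at least 4 of the 6 fits that leave out a library.

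**Figure D4:**
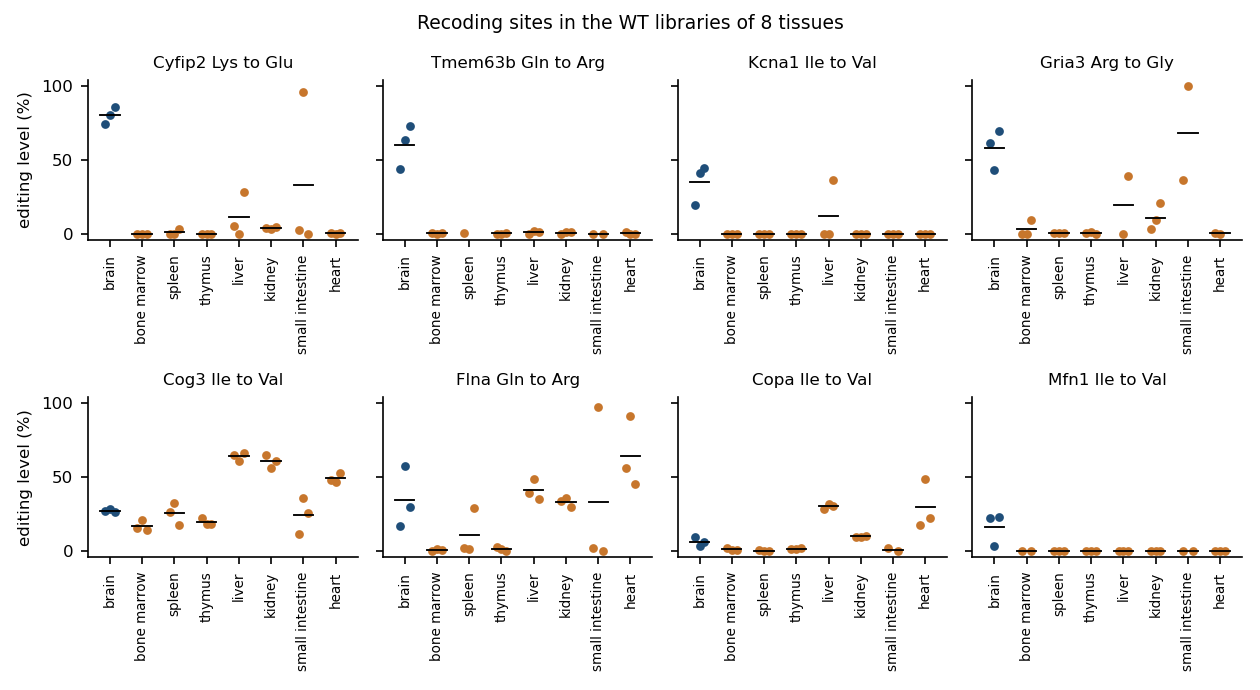
Editing level (percent, y axis) of 8 recoding sites in each WT library of 8 tissues (x axis); points are libraries with more than 100 reads and lines are means. Cyfip2, Tmem63b, Kcna1, Mfn1 and Gria3 have their highest mean in brain, apart from Gria3 in small intestine, while Cog3, Flna and Copa have it in liver or heart.

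Codons of broadly expressed genes were as high or higher in some other tissues. The Ile to Val site of Cog3 stood at 64.0% ± 3.00 in liver, 60.7% ± 4.53 in kidney, 49.2% ± 3.52 in heart, 27.4% ± 1.11 in brain, 25.5% ± 7.29 in spleen, 24.5% ± 12.1 in small intestine, 19.9% ± 2.31 in thymus and 17.1% ± 3.68 in BM (SD, n = 3). Brain, spleen and small intestine overlapped, and so did liver and kidney. All libraries of liver, kidney and heart lay above those of brain, but limma called none of these differences (adjusted p = 0.206, 0.0636 and 0.353). Copa gave 9.64%, 3.42% and 5.97% in brain, 28.7%, 31.6% and 30.3% in liver (limma, adjusted p = 0.123), 17.8%, 48.9% and 22.7% in heart (0.185) and 0.913%, 0.168% and 0% in spleen (0.0473). Liver and heart lay above brain without overlap and spleen below it, and the spleen call was lost without any of its libraries or without brain replicate 3 (up to 0.191). Flna spread in brain from 17.3% to 57.7%. It was at 56.1%, 91.4% and 45.5% in heart (adjusted p = 0.364), at 33.7%, 36.1% and 29.5% in kidney (0.998), and lower than brain at 0.399%, 1.66% and 0.541% in BM (limma, adjusted p = 0.032) and at 2.72%, 1.21% and 0.297% in thymus (0.0304). Both of these calls were lost without any of the libraries of BM or thymus, respectively (up to 0.0814 and 0.0974).

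The remaining recoded genes are given by their counts in each list, with no test of a difference between lists. These lists were chosen with earlier results of these data known, so nothing is read from how they differ from all sites. The shares of all sites called higher in brain, against which these small counts stand, were 7.01% in BM, 18.9% in spleen, 12.4% in thymus, 1.11% in liver, 11.3% in kidney, 6.83% in small intestine and 5.03% in heart. Over the 11 sites of broadly expressed genes compared in liver, kidney and heart, 0, 1 and 0 were higher in brain and none lower, with a median log2 ratio difference of -0.26, 0.01 and -0.68 beside 0.86, 1.03 and 1.47 over all sites of these comparisons. In BM 1 of 12, in spleen 2 of 11, in thymus 2 of 11 and in small intestine 0 of 11 were higher. These genes held 11 edited sites in brain at a median of 16.4%, and the other neuronal recoded genes 5 at 21.5%. The ion channel sites gave 3 of 4 higher in BM, 1 of 2 in spleen, 3 of 4 in thymus, 2 of 3 in liver, 3 of 5 in kidney, 1 of 2 in small intestine and 1 of 3 in heart. Of the sites in Cadps, Cyfip2, Nova1, Kif1a and Tmem63b, 2 of 3 were higher in BM, 2 of 4 in spleen, 2 of 6 in thymus, 1 of 4 in liver, 3 of 6 in kidney, 1 of 4 in small intestine and 2 of 4 in heart. No site of these lists was lower.

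The 7 edited sites of the ADAR genes all lay in introns of Adarb1, whose pre-mRNA ADAR2 itself edits. Their brain median was 25.9%, and all 7 were compared in every tissue, with a median log2 ratio difference between 3.11 (kidney) and 5.23 (spleen). Limma called 3 higher against spleen, 1 against thymus, 1 against heart and none in the other 4 tissues, beside 18.9%, 12.4% and 5.03% of all sites called higher against spleen, thymus and heart. At chr10:76786805 the brain libraries were at 99.8%, 52.0% and 79.2%, those of spleen at 0.1%, 0.0847% and 0.234% (limma, adjusted p = 0.00995, lost without any spleen library, up to 0.0547), those of kidney at 32.1%, 40.8% and 49.1% and those of liver at 41.8%, 39.8% and 27.1%. Liver and kidney lay between brain and spleen. At 2 further positions, chr10:76786829 and chr10:76786813, the brain libraries gave 99.8%, 15.1% and 54.5%, and 99.8%, 0.0835% and 41.6%. The brain libraries thus spread more at these introns than at Cacna1d or Cadps.

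The 12 genes of the 3′ UTR cluster list held 73 sites edited in brain, with a median level of 7.49%. Between 84 (kidney) and 111 (BM, liver) of their sites were compared. Higher in brain were 7 against BM, 21 against spleen, 14 against thymus, 1 against liver, 12 against kidney, 10 against small intestine and 7 against heart, and lower were 4, 2, 1, 0, 4, 0 and 0. Over all sites 7.01%, 18.9%, 12.4%, 1.11%, 11.3%, 6.83% and 5.03% were called higher and 1.12%, 0.288%, 0.406%, 0.139%, 1.93%, 0.0% and 0.0% lower. The median log2 ratio difference was -0.26 in BM and -0.29 in liver, beside 1.13 and 0.86 over all sites. It was 1.10 in spleen, 0.68 in thymus, 0.40 in kidney, 1.00 in small intestine and 1.20 in heart, each below the 1.48, 1.22, 1.03, 1.38 and 1.47 over all sites. The genes of this list were chosen with earlier results of these data known, so nothing is read from these differences. Within a 3′ UTR, neighbouring sites could differ in pattern. The Cds2 site at chr2:132135616 stood at 100% and 65.7% in the 2 brain libraries that read it, at 0.126%, 0.243% and 0.101% in spleen (limma, adjusted p = 0.0123, lost without any spleen library, up to 0.068), at 37.8%, 42.9% and 52.3% in BM and at 79.9%, 89.3% and 77.0% in liver, whereas the upstream site described above was at 2.2% or less in brain and at or above 20.1% in every library of BM, liver and kidney. The Trove2 site at chr1:145602508 was likewise high in brain and at 0.301%, 0.329% and 0.0621% in spleen (limma, adjusted p = 0.00461), where its neighbour was at 0.149% or less in all 3 libraries.

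A class over all tissues could be given to the 2934 sites covered in all 8, of which 840 were edited in at least 1. Of these, 20.4% were brain-specific, that is above 1% in brain and at or below it in the other 7, 345 (41.1%) were shared between brain and at least 1 other tissue, and 324 (38.6%) were brain-absent, edited elsewhere but not in brain. The brain-specific sites came from 72 genes and 27 intergenic positions and had a median brain level of 3.52%, with 29.9% as the highest. The 345 shared sites had a median of 11.3% in brain. Of these, 72.8% were also edited in liver, 71.9% in kidney, 52.8% in thymus, 51.0% in heart, 50.4% in BM, 40.9% in small intestine and 27.5% in spleen, and 48 were edited in all 8 tissues. Of the 324 brain-absent sites 204 were edited in 1 tissue only. Over all 324 the median level in the tissue where it was highest was 2.28%. The support of many sites was thin: 93 brain-specific sites were above 1% in 1 brain library only, 45 in 2 and 33 in 3, and 201 of the 324 brain-absent sites in at most 1 library of any tissue. The classes were also not clean by library. At 45 brain-specific sites some other tissue had 1 library above 1%, and at 3 some other tissue had 2. At 29 brain-absent sites 1 brain library was above 1%. When at least 2 libraries of a tissue had to be above 1%, 504 sites were edited, 22.6% of them brain-specific, 35.9% shared and 41.5% brain-absent. Without brain replicate 3 there were 123 brain-specific, 226 shared and 297 brain-absent sites. Leaving out replicate 1, 2 or 3 of every tissue left 1186, 2054 and 1009 sites covered in all 8 tissues, with 92, 124 and 57 brain-specific, 120, 258 and 96 shared, and 124, 201 and 125 brain-absent.

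By annotation, 3′ UTRs held 1849 of the 2934 covered sites, and 29.6% of these were edited, beside 28.6% over all annotations. Of their edited sites 86 of 547 were brain-specific, 232 shared and 229 brain-absent (15.7%, 42.4% and 41.9%). Among intronic sites 31 were brain-specific, 41 shared and 23 brain-absent, and among intergenic ones 27, 42 and 38. Of the nonsynonymous sites 9 were brain-specific, 12 shared and 8 brain-absent, and of the synonymous ones 8, 1 and 3. Zfp397 alone held 7 of the 9 nonsynonymous and all 8 synonymous brain-specific sites, so that 2 coding sites of this class lay in other genes. In 5′ UTRs the numbers were 6, 3 and 5, and in ncRNA 4, 14 and 18.

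**Figure D5:**
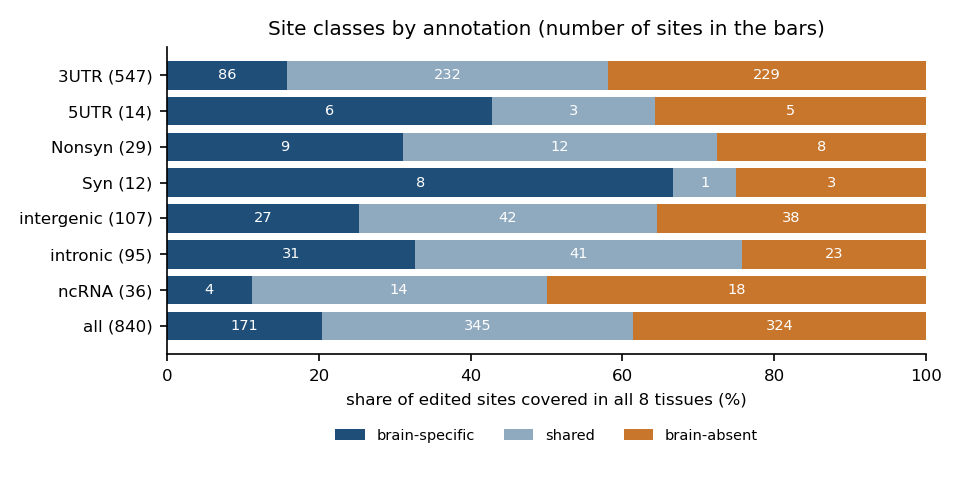
Share of the edited sites covered in all 8 WT tissues (x axis, percent) that are brain-specific, shared or brain-absent, for each annotation (y axis). The numbers of sites stand in the bars. 3′ UTRs hold 86, 232 and 229, and introns 31, 41 and 23.

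By gene, the brain-specific class was led by Zfp397, a zinc finger gene, with 15 of its 20 edited sites, all in its coding sequence, at brain levels of 1.07% to 7.07%. None of the other tissues passed 0.780% at these positions, and 12 of the 15 were above 1% in at least 2 brain libraries. Hp1bp3, whose product binds heterochromatin, had 8 of 10, all intronic, at 2.71% to 9.64%, but only 2 of these in at least 2 brain libraries. Dusp11, an RNA phosphatase, had 5 of 8 in introns, with a median of 8.81% and 4 of them in at least 2 brain libraries. In Pdcd2 all 5 edited sites were brain-specific, with a median of 14.0%, and each of them in 1 brain library only. The brain-specific class thus held a set supported across libraries, such as Zfp397 and Dusp11, and a set that 1 library carried. These and the following genes were chosen for their number of sites after the classes were seen.

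The shared class was led by Ankrd28, a subunit of a protein phosphatase, with 13 of its 20 edited 3′ UTR sites. Its levels were 1.49% to 35.3% in brain, with a median of 6.75%, and the highest of the other 7 tissues, taken site by site, had a median of 16.1%. The highest of 7 lies above a typical tissue by construction, so these pairs of medians, here and below, are given side by side with no comparison. Of the 13, 12 were edited in liver and 11 in kidney. In Ovca2, with 11 of 15, the median was 7.98% in brain and 10.4% in the highest other tissue, and in Gnl3l, a nucleolar GTPase, 16.2% and 24.9% over 5 sites. Cdk7, a kinase that phosphorylates RNA polymerase, had 9 of 14 shared sites with a median of 13.5% in brain and 3.02% in the highest other tissue. Rpa1, a subunit of the protein that coats single-stranded DNA, had 8 of 11 with 19.5% and 11.2%, and all 7 edited sites of Adarb1 were shared, with 25.9% and 10.5%. Iws1, an elongation factor, had 5 shared sites of 8 with a brain median of 86.3% against 6.19%, none of them above 1% in at least 2 brain libraries.

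Brain-absent sites gathered in other 3′ UTRs. Iqgap1, a scaffold of the actin cortex, had 14 of its 17 edited sites in this class, with brain at 0.256% or less, and 11 of them were edited in BM and 8 in spleen. Slc35e2 had 11 of 15, with brain at 0.294% or less and a median of 10.7% in the highest other tissue, and 10 of the 11 were edited in liver. All 7 edited sites of Mgat4a were brain-absent, with a median of 7.27% and up to 31.7% elsewhere. The same was true of all 5 of Nt5dc3 and all 5 of Polr3f, a subunit of RNA polymerase III, with medians of 1.89% and 4.34%. C330018D20Rik had 7 of 10 at a median of 12.4%, 6 of them edited in liver. At none of these sites were 2 brain libraries above 1%.

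The sites edited in all 8 tissues included Cog3, described above, and sites in repeats. The ncRNA site of uc012aji.1 had means of 36.8% to 41.4% in the 8 tissues and of 36.1% to 40.6% in the E861A libraries, and its 21 bases have 230 copies in the genome with A at the site and 56 with G. In Iqgap1 a site within a run of adenines, with 23 copies, stood at 16.4% to 19.7% everywhere. Whether reads of other copies enter these levels was not tested. Among the sites higher in brain, the 21 bases of Commd2 have 2 copies with A and 2 with G.

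The E861A libraries, which no class used, were read at the same sites. In the 3 E861A brain libraries 34.5% to 49.7% of the brain-specific sites with enough reads were above 1%, against 0% to 5.26% in the 21 E861A libraries of other tissues. For shared sites the range was 61.3% to 69.9% in E861A brain, 2.90% to 8.21% in BM, spleen and thymus, 3.27% to 6.73% in small intestine, 7.06% to 15.4% in heart, and 13.8% to 33.5% in liver and kidney. Brain-absent sites were above 1% at 8.13% to 13.0% in E861A brain and 0.617% to 4.66% elsewhere, beside 2.99% to 3.43% and 0.334% to 2.31% for sites edited in none of the WT tissues. In E861A brain Cyfip2 stood at 79.8% ± 1.14, Kcna1 at 48.3% ± 4.21 and Cacna1d Ile to Met at 39.5% ± 5.49, within or near the WT range, and Commd2 at 7.24% ± 5.66, below all WT brain libraries. Of the sites lower in brain, Rhoa was at 0.257% ± 0.161 in E861A spleen, and Cds2 at chr2:132135369 at 0% in all 3 E861A libraries of BM and of kidney. The difference between genotypes was not tested here.

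The bases next to the edited adenosine, which no class used, are given by class with no test. T preceded the site at 41.7% of shared, 24.6% of brain-specific and 17.9% of brain-absent sites, beside 15.9% of sites covered in all 8 tissues and edited in none and 44.1% of all 48715 listed positions, most of which were not covered in all 8. G preceded it at 6.09%, 16.4% and 22.5%, beside 26.4% of the unedited and 7.73% of all listed positions. G followed at 49.3%, 44.4% and 38.3%, beside 33.3% and 47.5%. The shared class thus lay close to all listed positions at these 3 measures. A T before and a G after the site, with few G before it, are known preferences of the ADAR enzymes. By support, 28.2% of brain-specific sites above 1% in 2 or 3 brain libraries had T before them against 21.5% of those in 1, and 23.6% of brain-absent sites above 1% in at least 2 libraries of a tissue against 14.4% of the rest. A preceded 39.0% of the brain-absent sites with this support, 23.4% of the rest and 31.3% of shared sites, and A followed 31.7%, 22.9% and 20.3%. Of the 48 sites edited in all 8 tissues 54.2% had T before the site and 4.17% G. Neighbouring sites share their sequence and their amplicon, so these shares are a description.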

How the data were processed

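For each library the authors deposited counts of covering and of edited reads at 48715 positions, with their fraction of 0 to 1, none of them normalized. The submitters' processing notes name STAR and SAMtools, with no version given in the sources used here. Every listed position carries A on its strand in mm9 (NCBIM37). Groups came from the labels, which include liver although the mmPCR-seq paragraph of the methods does not. A further 96 columns of per-sample values in 2 tables of the whole series were not used. The members and gene lists were chosen with earlier results of these data known.

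Levels were recomputed from the counts. A replicate with 100 or fewer reads at a site was treated as missing, and a site's level was taken from the reads of its covered replicates together. Sites of each pair of tissues were tested with limma 3.58.1 in R 4.3.3, using lmFit and trended eBayes, on log2((level + 0.01)/(1 − level + 0.01)) over the 6 libraries, with Benjamini-Hochberg adjustment over the sites of the pair and a threshold of 0.05. This was tested on simulated data. A two-sided exact permutation test served for library means, and shares carry Wilson 95% intervals. Genome copies were counted on both strands as identical 21 bases, allowing A or G at the site. Python 3.11.15, pandas 2.3.3, numpy 2.4.6, scipy 1.17.1 and matplotlib 3.10.9 were used. Sites were named by rule: per pair, up to 3 called sites with the largest difference in either direction and no overlap; per class, the 5 with the highest levels; nonsynonymous sites above 5% in brain; and up to 3 sites of each gene list. The alternatives were a minimum of 500 reads, a limit of 0.05, an offset of 0.05, untransformed levels, a quasi-binomial model, the methods' criterion (p under 0.1, difference of 5 points or more), all 24 libraries in the fit, a block for the replicate number, levels averaged over replicates, means weighted by coverage, and leaving out each replicate. Agreement of 2 libraries, and means over all covered sites or over sites edited in the other tissue, were added after seeing the data.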

Additional observations from a re-analysis of the deposited data

How the results depend on the processing

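With tissues in the order BM, spleen, thymus, liver, kidney, small intestine, heart, the counts of called sites were 58, 133, 95, 9, 96, 47 and 35. A fit with all 24 libraries gave 223, 272, 232, 193, 196, 238 and 241. The replicate block gave 0 in every comparison except spleen, with 18. The library titles do not say whether same-numbered libraries of different tissues came from the same mouse. The 21 correlations of same-numbered libraries with brain were -0.0926 to 0.0426, and the 42 of differently numbered ones -0.141 to 0.159. Centred on 3 libraries per tissue, these correlations cannot decide whether the samples are paired. Untransformed levels gave 0, 22, 3, 0, 4, 0 and 0. The offset of 0.05 gave 22 in BM, 53 in thymus, 0 in liver, 47 in kidney, 0 in small intestine and 1 in heart. The methods' criterion gave 123 in BM, 113 in liver, 107 in small intestine and 129 in heart, and the limit of 0.05 gave 96, 44, 86 and 91 there. The quasi-binomial model gave 81 in liver, 83 in small intestine and 116 in heart, and the minimum of 500 reads 58, 77 and 82. Leaving out each replicate in turn gave 0 to 112, 57 to 191, 0 to 127, 0 to 20, 0 to 139, 0 to 106 and 0 to 113.

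The share of brain-edited sites also edited was lower at the limit of 0.05 (26.7%, 7.63%, 20.9%, 38.3%, 28.8%, 16.7% and 16.8%) and ranged with a replicate left out over 28.0 to 36.3%, 17.0 to 23.9%, 28.3 to 38.1%, 44.8 to 51.6%, 42.9 to 47.5%, 5.50 to 29.8% and 14.3 to 35.9%. The difference in mean level rose at that limit to 11.5, 15.8, 14.0, 9.03, 12.1, 14.1 and 14.4 points, was 8.80 in kidney when weighted by reads, and with a replicate left out lay in 6.13 to 8.17, 9.00 to 11.5, 7.13 to 9.69, 4.89 to 6.00, 7.01 to 8.39, 7.50 to 10.1 and 7.90 to 10.3. Over all covered sites it was 1.36, 1.86, 1.68, 1.22, 1.496, 1.71 and 1.79, and over the sites edited in the other tissue 2.89, 6.48, 6.32, 4.62, 8.24, 7.53 and 8.46. It was positive in all of these settings. Of the edited sites, 25.0% were brain-specific and 34.5% brain-absent with over 500 reads, and 38.0% were brain-specific, 36.2% shared and 25.8% brain-absent at the limit of 0.05. With 2 libraries required, which was chosen after seeing the data, 35.9% were shared. The numbers of shared and brain-absent sites fell to 0.632 and 0.571 of those reported with over 500 reads, to 0.446 and 0.340 at the limit of 0.05 and to 0.525 and 0.645 with 2 libraries. With a replicate left out the shares were 18.7 to 27.4% brain-specific, 34.5 to 44.3% shared and 34.5 to 46.0% brain-absent. Of 93 named calls, 81 also passed with all 24 libraries, 92 by the methods' criterion, 79 by the quasi-binomial model, 51 with the offset of 0.05, 16 with untransformed levels and 8 with the replicate block; 42 were lost under that offset, 77 with untransformed levels and 83 under the block, with no value under the block for the others. The cause of these changes was not tested.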
